A study of Marchantia polymorpha and Lactuca sativa with 27 samples.

Results

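MpPOD54 (Mp5g01660), MpPOD55 (Mp5g01670), MpPOD56 (Mp5g01680) and MpPOD58 (Mp5g01700) are class III peroxidase genes of the liverwort Marchantia polymorpha that stand close together, by locus number, on chromosome 5. These 4 genes were picked by name, with their levels in starved and full medium already known, out of 19355 genes in the count table, 164 of which carry a class III peroxidase name. All 4 passed the filter on low counts, as did 109 of the 164 named peroxidases and 13016 genes in all. RNA was sequenced from whole plants of 2 genotypes: Mpwrky10, labelled wrky10, and the wild type Tak-1 (WT). Gemmalings, the plantlets that grow from asexual gemmae, were 7 days old when they were moved for 5 days to medium labelled as without phosphate (0 mM), to medium labelled as without nitrate (0 mM) or to full medium (2 mM phosphate and 10 mM nitrate). Each of the 6 groups had 3 libraries, 18 in all. The labels name the mutated gene, MpWRKY10, which encodes a transcription factor of the WRKY family, but not the kind of mutation, and they do not say whether libraries of a group came from separate cultures. The p-values below therefore rest on how far these samples differ, a spread that may be technical.

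Class III peroxidases are plant enzymes with a heme group that travel through the secretory pathway to the cell wall or the vacuole. They use hydrogen peroxide to oxidise phenolic compounds, which can crosslink and stiffen the wall, and under other conditions they release reactive oxygen species that loosen it. In land plants they form large families whose genes often lie in tandem arrays, and members are known from other plants to respond to pathogens, wounding and nutrient shortage. The individual roles of the 4 enzymes described here are not given in the sources used.

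The libraries held 18165419 to 25544702 counts each, so that 1 count was worth 0.0391 to 0.056 CPM, the count scaled to library size. MpWRKY10 RNA was present in both genotypes, at 25.5 to 28.9 CPM in wrky10 and 28.7 to 31.3 CPM in WT labelled no phosphate, 34.4 to 37.6 CPM in wrky10 and 21.7 to 26.9 CPM in WT labelled no nitrate, and 14.9 to 21.6 CPM in wrky10 and 17.2 to 22.4 CPM in WT in full medium. Labelled no nitrate, it was higher in wrky10 (log2 0.60, SE 0.117, adjusted p = 0.00138 by edgeR's quasi-likelihood test), and it passed the test in neither other medium. Its RNA level is thus no check of the genotype label. The medium labels stand against the summed levels of 2 transporter families. The summed level of the 8 genes of the PTB family, phosphate transporters that are known to be induced by phosphate shortage, was 168 to 304 CPM in wrky10 and 343 to 509 CPM in WT labelled no nitrate, 27 to 34.1 CPM in wrky10 and 31.8 to 34.9 CPM in WT labelled no phosphate, and 37.1 to 48.7 CPM in wrky10 and 27.3 to 46.7 CPM in WT in full medium. Labelled no nitrate, most of the sum came from MpPTB8, with means of 201 CPM in wrky10 and 337 CPM in WT. MpPTB7 alone averaged highest labelled no phosphate, at 10.2 CPM in wrky10 and 11.6 CPM in WT. It averaged 6.62 CPM in wrky10 and 9.23 CPM in WT labelled no nitrate, and 5.2 CPM in wrky10 and 5.51 CPM in WT in full medium. The 17 ammonium transporter genes of the AMT family summed to 614 to 811 CPM in wrky10 and 703 to 805 CPM in WT labelled no nitrate, 916 to 1070 CPM in wrky10 and 1090 to 1110 CPM in WT labelled no phosphate, and 485 to 732 CPM in wrky10 and 614 to 661 CPM in WT in full medium. Group names below are the labels of the libraries and nothing more.

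Marker genes of other structures are given here since whole plants were sampled. In such samples fewer cells of a type and less RNA per cell cannot be told apart. The rhizoid marker MpBHLH14 (MpRSL1), 1 of 2 rhizoid markers with a matching name, lay at 25.3 to 32.8 CPM in wrky10 and 25 to 25.5 CPM in WT labelled no phosphate, at 18.7 to 25.8 CPM in wrky10 and 18 to 20.8 CPM in WT labelled no nitrate, and at 15.9 to 19.4 CPM in wrky10 and 16.2 to 18 CPM in WT in full medium. The gemma cup regulator MpGCAM1 lay at 2.72 to 5.62 CPM in wrky10 and 5.18 to 5.81 CPM in WT labelled no phosphate, 2.78 to 3.62 CPM in wrky10 and 2.62 to 3.7 CPM in WT labelled no nitrate, and 1.01 to 1.89 CPM in wrky10 and 1.53 to 2.37 CPM in WT in full medium. The ranges of both markers lay highest labelled no phosphate and lowest in full medium, with some overlap between groups, and their part in the results was not tested. The Rubisco small subunit gene MpRBCS ran the other way, at 129 to 166 CPM in wrky10 and 121 to 127 CPM in WT labelled no phosphate, 309 to 356 CPM in wrky10 and 288 to 327 CPM in WT labelled no nitrate, and 388 to 466 CPM in wrky10 and 361 to 437 CPM in WT in full medium. The 4 oil body markers summed to 49.9 to 53.2 CPM in wrky10 and 61.4 to 70.4 CPM in WT labelled no phosphate, 49.5 to 51 CPM in wrky10 and 53.4 to 57 CPM in WT labelled no nitrate, and 49.1 to 58.6 CPM in wrky10 and 55.3 to 63.9 CPM in WT in full medium. These sums, made up mostly of MpC1HDZ, did not overlap between genotypes in the starved media, but single markers disagreed. Labelled no nitrate, MpSYP12B was higher in wrky10 (5.9 to 6.33 CPM, against 5.21 to 5.61 CPM in WT). MpERF13 overlapped there, and MpC1HDZ and MpR2R3-MYB2 were lower in wrky10. Labelled no phosphate, MpC1HDZ overlapped (32.9 to 36.5 CPM in wrky10 and 36.2 to 43.4 CPM in WT) and the others were lower in wrky10. Their part in the genotype results was not tested. The air pore marker MpNOP1 lay at 83.9 to 107 CPM over all groups, and its genotypes were apart labelled no nitrate, at 87.9 to 91.4 CPM in wrky10 and 97.5 to 106 CPM in WT. Of 3 antheridium and sperm markers 2 had a matching name and summed to 0.393 to 1.66 CPM, with MpPRM at 0 counts in 13 of 18 libraries. Neither of the 2 markers of dividing cells had a matching name.

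MpPOD54 had the most counts of the 4. In the libraries labelled no phosphate it stood at 1.75, 6.71 and 1.04 CPM in wrky10 (34, 145 and 21 counts), against 9.69, 11.1 and 7.77 CPM in WT (204, 237 and 199 counts). In those labelled no nitrate it stood at 1.3, 2.53 and 1.27 CPM in wrky10 (24, 52 and 25 counts), against 2.96, 5.43 and 4.65 CPM in WT (64, 97 and 87 counts). The highest mutant library lay below the lowest WT library in each of these media, and replicate 2 of wrky10 labelled no phosphate was far above its 2 companions. Full medium gave 4, 0 and 0 counts in wrky10 and 0, 0 and 6 counts in WT, so that a single library held all counts of each genotype.

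MpPOD55 had its highest library in the same place as MpPOD54 in both genotypes labelled no phosphate. Labelled no phosphate, it stood at 0.516, 4.3 and 0.494 CPM in wrky10 (10, 93 and 10 counts), against 7.6, 8.95 and 6.37 CPM in WT (160, 191 and 163 counts). Labelled no nitrate, it stood at 0.487, 0.487 and 0.458 CPM in wrky10 (9, 10 and 9 counts), against 1.2, 1.85 and 1.23 CPM in WT (26, 33 and 23 counts). Again the genotypes did not overlap in either medium, and the 3 mutant libraries labelled no nitrate lay within a narrow band. In full medium 1 count was found over the 3 wrky10 libraries and 0 over the 3 WT libraries.

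MpPOD56 and MpPOD58 were not detected in full medium, with 0 counts in each of the 6 libraries. A total of 0 counts allows up to 3 counts over the libraries of a group, which is 0.0471 CPM for wrky10 and 0.0463 CPM for WT. Here and below, such limits and the intervals on ratios of summed counts cover counting error only.

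MpPOD56 stood at 0.567, 2.13 and 0.198 CPM in wrky10 labelled no phosphate (11, 46 and 4 counts), against 3.99, 4.78 and 2.54 CPM in WT (84, 102 and 65 counts). Labelled no nitrate, it stood at 0.541, 1.31 and 1.02 CPM in wrky10 (10, 27 and 20 counts), against 1.11, 2.07 and 1.55 CPM in WT (24, 37 and 29 counts). The genotypes were apart in the libraries labelled no phosphate and overlapped in those labelled no nitrate, where the highest mutant library was above the lowest WT library.

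MpPOD58 stood at 0.258, 1.34 and 0.346 CPM in wrky10 labelled no phosphate (5, 29 and 7 counts), against 3.61, 4.12 and 2.54 CPM in WT (76, 88 and 65 counts). Labelled no nitrate, it stood at 0.433, 1.22 and 1.37 CPM in wrky10 (8, 25 and 27 counts), against 1.94, 3.25 and 3.21 CPM in WT (42, 58 and 60 counts). The genotypes did not overlap in either medium. In WT the ranges of the media labelled no nitrate and no phosphate did overlap for this gene, unlike those of the other 3.

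**Figure D1:**
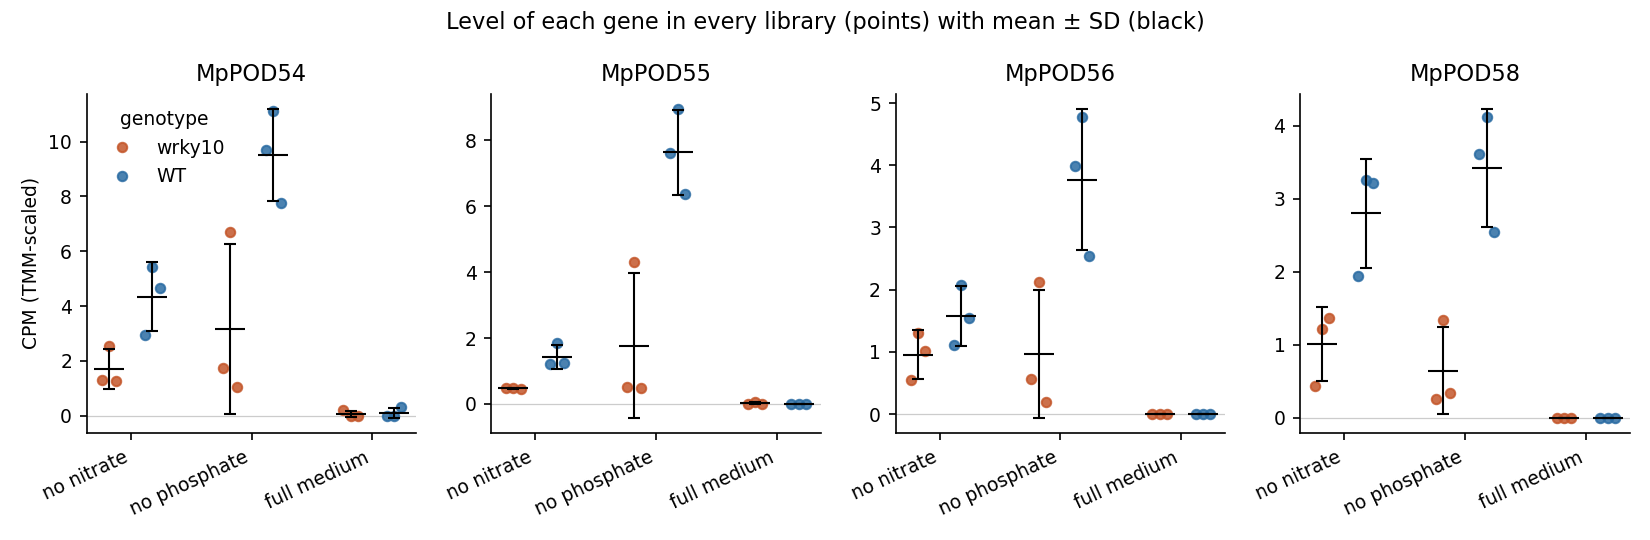
Level of MpPOD54, MpPOD55, MpPOD56 and MpPOD58 in CPM (y axis, a separate scale for each gene) in every library, by medium label (x axis) and genotype (wrky10 orange, WT blue), with the mean and SD of 3 libraries in black. WT labelled no phosphate is the highest group for each gene, with means of 9.53, 7.64, 3.77 and 3.43 CPM, and full medium lies at or near 0.

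The differences between starved and full medium were among the values by which these genes were picked, so they are given as a description and nothing is read from them. In wrky10 labelled no phosphate against wrky10 in full medium, the ratio of summed counts was 52 for MpPOD54 (95% counting interval 20 to 193) and, against 1 count, 118 for MpPOD55 (20.7 to 4680). MpPOD56 was at least 21.2-fold higher and MpPOD58 at least 14.2-fold higher, taking 3 counts over the group as the floor. In WT labelled no phosphate the ratio for MpPOD54 was 102 (46.4 to 278), and MpPOD55, MpPOD56 and MpPOD58 were at least 163-fold, 79.7-fold and 72.7-fold higher. Labelled no nitrate, the ratios in wrky10 were 27.4 for MpPOD54 (10.4 to 103) and 30.4 for MpPOD55 (5.03 to 1240), with MpPOD56 at least 20.6-fold and MpPOD58 at least 21.7-fold higher. In WT labelled no nitrate the ratio for MpPOD54 was 46 (20.8 to 127), and MpPOD55, MpPOD56 and MpPOD58 were at least 30.4-fold, 33.4-fold and 59.3-fold higher. All 4 genes were without overlap between starved and full medium in these 4 comparisons, as were 24.4%, 31.6%, 27.5% and 26.7% of all genes tested in the higher direction.

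The comparison of the libraries labelled no nitrate with those labelled no phosphate asks whether the 4 genes differ between the starved media. No rule names this comparison as one that chose the genes. Their levels in both starved media were already known at the choice, so its p-values are not independent of it. In WT the level of MpPOD55 was 1.43 ± 0.366 CPM labelled no nitrate and 7.64 ± 1.29 CPM labelled no phosphate (SD, n = 3 each), and it was lower by the edgeR quasi-likelihood test (log2 -2.42, SE 0.588, adjusted p = 0.00635 over all genes). It was the 1 gene of the 4 that passed, where 14.6% of all genes tested were called lower. MpPOD54 averaged 4.35 ± 1.27 CPM labelled no nitrate and 9.53 ± 1.67 CPM labelled no phosphate (log2 -1.14, SE 0.564, adjusted p = 0.148) and MpPOD56 averaged 1.58 ± 0.482 CPM labelled no nitrate and 3.77 ± 1.14 CPM labelled no phosphate (log2 -1.26, SE 0.55, adjusted p = 0.103). Both were without overlap between the media, as was MpPOD55, where 24.7% of all genes were lower without overlap. MpPOD58 averaged 2.8 ± 0.743 CPM labelled no nitrate and 3.43 ± 0.809 CPM labelled no phosphate (log2 -0.29, SE 0.441, adjusted p = 0.668). The median log2 difference of the 4 was -1.20, beside 0.00 over all genes. The call for MpPOD55 held under all 13 alternatives, at log2 -2.66 to -2.29.

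In wrky10 none of the 4 genes passed this test by edgeR, where 26.7% of all genes did. At an unadjusted p under 0.05 the count was 1 of 4, and DESeq2 called 1. MpPOD55 was at 0.477 ± 0.0167 CPM labelled no nitrate and 1.77 ± 2.19 CPM labelled no phosphate (log2 -1.90, SE 0.726, adjusted p = 0.0703), with no overlap between the media, as for 16.6% of all genes in the lower direction. That separation is narrow, between 0.487 CPM as the highest library labelled no nitrate and 0.494 CPM as the lowest labelled no phosphate, which are 10 counts each. MpPOD54 (1.7 ± 0.72 CPM labelled no nitrate and 3.17 ± 3.09 CPM labelled no phosphate, log2 -0.90, adjusted p = 0.333), MpPOD56 (0.958 ± 0.39 CPM labelled no nitrate and 0.964 ± 1.02 CPM labelled no phosphate, log2 -0.02, adjusted p = 0.986) and MpPOD58 (1.01 ± 0.504 CPM labelled no nitrate and 0.648 ± 0.602 CPM labelled no phosphate, log2 0.62, adjusted p = 0.463) overlapped. These values rest on replicate 2 of wrky10 labelled no phosphate: without it the log2 difference of MpPOD55 was -0.08. Those of MpPOD54 and MpPOD56 turned positive, at 0.30 and 1.33, and that of MpPOD58 was 1.73, which then passed (adjusted p = 0.0482).

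Whether the 4 genes differed between the media by unequal amounts was tested on ratios between them within each library. The test was chosen after the values had been seen. It used the log2 ratio of 2 genes' counts, with 0.5 counts added, and the difference between media averaged over the genotypes. An exact two-sided permutation test exchanged media labels within each genotype, over 400 arrangements, and p-values were adjusted over the 6 pairs of genes. The log2 ratio of MpPOD55 to MpPOD58 was lower in the libraries labelled no nitrate, with differences of -1.91 in wrky10 and -2.12 in WT (mean -2.01, exact p = 0.005, adjusted 0.015). MpPOD55 over MpPOD56 gave -1.58 in wrky10 and -1.17 in WT (mean -1.38, exact p = 0.005, adjusted 0.015). MpPOD54 over MpPOD58 gave -1.34 in wrky10 and -0.86 in WT (mean -1.10, exact p = 0.01, adjusted 0.02). MpPOD54 over MpPOD55 gave 0.58 in wrky10 and 1.26 in WT (mean 0.92, exact p = 0.015, adjusted 0.0225). MpPOD54 over MpPOD56 (-1.01 in wrky10 and 0.08 in WT, mean -0.46) and MpPOD56 over MpPOD58 (-0.33 in wrky10 and -0.94 in WT, mean -0.64) did not pass, each with an adjusted exact p of 0.095. These 4 passing pairs passed in each of the 13 alternatives, while MpPOD56 over MpPOD58 passed only without replicate 3 of wrky10 labelled no phosphate (-0.90, adjusted exact p = 0.015). Within a single genotype 3 libraries against 3 cannot give an exact p below 0.1.

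The same contrast can be read as shares of the counts of the 4 genes. MpPOD55 held 12.5 ± 4.6% of them in wrky10 and 14.3 ± 2.57% in WT labelled no nitrate, against 23.4 ± 6.53% in wrky10 and 31.5 ± 1.4% in WT labelled no phosphate (SD, n = 3 each). MpPOD58 held 23.6 ± 8.95% in wrky10 and 27.6 ± 2.27% in WT labelled no nitrate, against 11.4 ± 4.57% in wrky10 and 14 ± 0.683% in WT labelled no phosphate. MpPOD54 held 41.2 ± 8.96% in wrky10 and 42.6 ± 1.41% in WT labelled no nitrate, against 51 ± 5.24% in wrky10 and 39.2 ± 1.08% in WT labelled no phosphate. MpPOD56 held 22.7 ± 2.69% in wrky10 and 15.5 ± 0.939% in WT labelled no nitrate, against 14.2 ± 4.43% in wrky10 and 15.2 ± 1.78% in WT labelled no phosphate. In WT the shares of MpPOD55 and MpPOD58 moved in opposite directions between the media and the share of MpPOD56 lay in the same range in both.

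**Figure D2:**
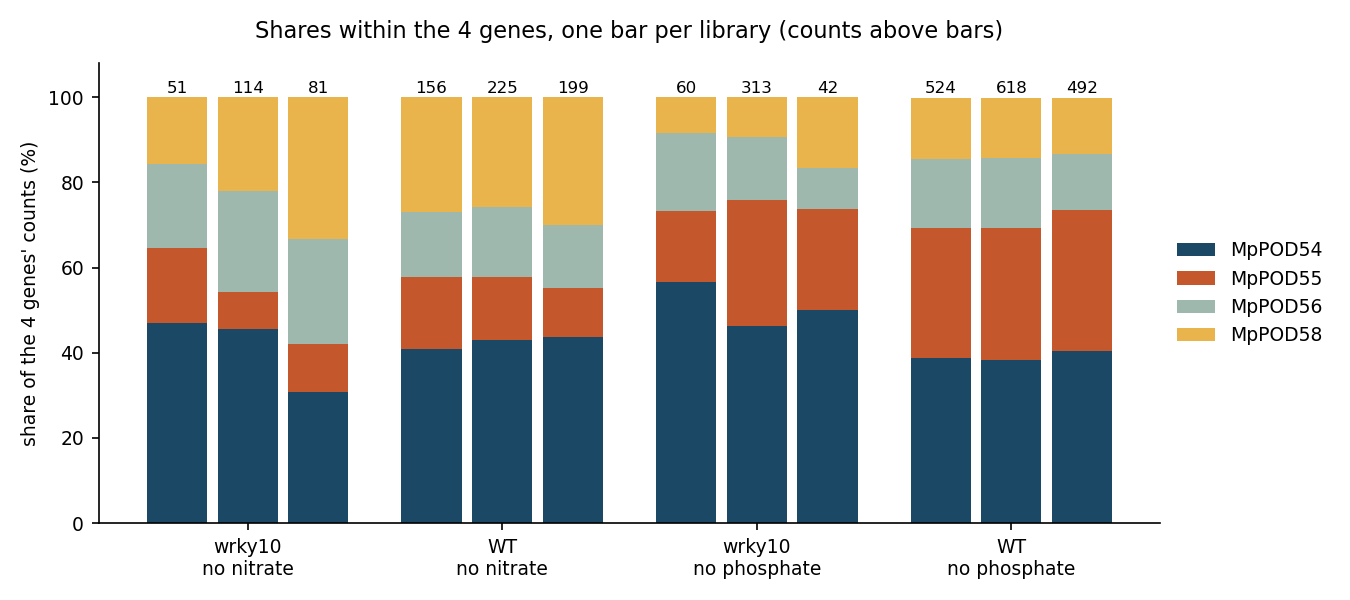
Share of the counts of MpPOD54, MpPOD55, MpPOD56 and MpPOD58 held by each gene (y axis, percent, stacked), with 1 bar for each starved library, grouped by genotype and medium label, and the total count of the 4 genes above the bar. In every WT library labelled no phosphate the MpPOD55 band is wider and the MpPOD58 band narrower than in any labelled no nitrate, while single wrky10 libraries of the media overlap. The bars labelled no phosphate rest on 42 to 313 counts in wrky10 and 492 to 618 in WT.

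The comparison of genotypes asks how the levels of the 4 genes differ when MpWRKY10 is mutated. In the libraries labelled no phosphate all 4 were lower in wrky10 than in WT without overlap, where 17.5% of all genes tested were lower without overlap. By edgeR's quasi-likelihood test 2 of the 4 were called lower, beside 3.95% of all genes. MpPOD58 averaged 0.648 ± 0.602 CPM in wrky10 and 3.43 ± 0.809 CPM in WT (log2 -2.36, SE 0.509, adjusted p = 0.0136), and MpPOD55 averaged 1.77 ± 2.19 CPM in wrky10 and 7.64 ± 1.29 CPM in WT (log2 -2.08, SE 0.568, adjusted p = 0.0464). MpPOD56 averaged 0.964 ± 1.02 CPM in wrky10 and 3.77 ± 1.14 CPM in WT (log2 -1.93, SE 0.574, adjusted p = 0.0638), and MpPOD54 averaged 3.17 ± 3.09 CPM in wrky10 and 9.53 ± 1.67 CPM in WT (log2 -1.57, SE 0.575, adjusted p = 0.114). The median log2 difference of the 4 genes was -2.01, beside 0.01 over all genes. As summed counts scaled for depth, wrky10 held 34.7% of the WT level of MpPOD54, 24.4% of MpPOD55, 27% of MpPOD56 and 19.9% of MpPOD58.

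These calls depend on single libraries. Without replicate 2 of wrky10 labelled no phosphate all 4 genes passed, with log2 differences of -2.77 for MpPOD54, -3.90 for MpPOD55, -3.29 for MpPOD56 and -3.47 for MpPOD58. Without replicate 1 or 2 of WT labelled no phosphate, or without replicate 3 of wrky10 labelled no phosphate, 0 of the 4 passed, and the difference stayed negative for each gene in every such fit. Replicate 2 of that mutant group also had the highest score of the group on the first principal component of all genes, 23, beside 8.5 and -3.6 for replicates 1 and 3, and the highest summed level of the 4 genes, 14.5 CPM beside 3.09 and 2.07 CPM. The part of that component in the result was not tested.

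In the libraries labelled no nitrate the 4 genes averaged lower in wrky10, but 0 of 4 passed by edgeR, where 9.82% of all genes were called lower. At an unadjusted p under 0.05 the count was 1, and DESeq2 called 1, MpPOD58. MpPOD58 averaged 1.01 ± 0.504 CPM in wrky10 and 2.8 ± 0.743 CPM in WT (log2 -1.45, SE 0.493, adjusted p = 0.0539). MpPOD55 averaged 0.477 ± 0.0167 CPM in wrky10 and 1.43 ± 0.366 CPM in WT (log2 -1.56, SE 0.749, adjusted p = 0.168), and MpPOD54 averaged 1.7 ± 0.72 CPM in wrky10 and 4.35 ± 1.27 CPM in WT (log2 -1.34, SE 0.631, adjusted p = 0.159). These 3 genes had no overlap between the genotypes, where 18% of all genes were lower without overlap. MpPOD56 averaged 0.958 ± 0.39 CPM in wrky10 and 1.58 ± 0.482 CPM in WT (log2 -0.70, SE 0.615, adjusted p = 0.48). The median of the 4 was -1.39, beside 0.01 over all genes.

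In full medium both genotypes were close to the floor of 3 counts over a group, and no fold is given. So few counts leave nothing to compare, so the genotype test in this medium is not read for the 4 genes. Of all genes tested, 4.24% were called there. The difference between starved media was not shown to depend on the genotype: the interaction was 0.24 for MpPOD54 (SE 0.858), 0.52 for MpPOD55 (SE 0.977), 1.24 for MpPOD56 (SE 0.846) and 0.91 for MpPOD58 (SE 0.715) on the log2 scale, with adjusted p of 0.923, 0.833, 0.477 and 0.546 by edgeR. None was called, also by DESeq2 or at an unadjusted p under 0.05, where 3.69% of all genes were called. Without replicate 2 of wrky10 labelled no phosphate the interaction passed for MpPOD55 (2.34, adjusted p = 0.0153) and MpPOD56 (2.59, adjusted p = 0.0448).

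The 4 genes belong to a run of 9 rows, Mp5g01630 to Mp5g01710, of which 8 carry a class III peroxidase name and Mp5g01650 has no name in the table used. MpPOD57 (Mp5g01690) lies inside the run, between MpPOD56 and MpPOD58, and had few counts. It had 3, 1 and 1 counts in wrky10 and 12, 18 and 10 counts in WT labelled no phosphate, 0, 8 and 11 counts in wrky10 and 17, 23 and 15 counts in WT labelled no nitrate, and 0 counts in full medium. Labelled no phosphate, it averaged 0.0835 ± 0.0617 CPM in wrky10 and 0.602 ± 0.228 CPM in WT, without overlap (log2 -2.77, SE 0.842, adjusted p = 0.0612). Between media in WT its ratio of summed counts, no nitrate over no phosphate, was 1.61 (95% counting interval 1.05 to 2.48), while that of its neighbour MpPOD56 was 0.419 (0.325 to 0.535). The edgeR test of the media called neither (log2 0.67, adjusted p = 0.409 for MpPOD57).

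At the low end of the run MpPOD51 (Mp5g01630) and MpPOD52 (Mp5g01640) were found in full medium too. MpPOD51 averaged 15.6 ± 8.26 CPM in wrky10 and 42.2 ± 4.87 CPM in WT labelled no phosphate (log2 -1.43, adjusted p = 0.137), 23.8 ± 6.13 CPM in wrky10 and 48.1 ± 16.2 CPM in WT labelled no nitrate (log2 -1.01, adjusted p = 0.219), and 2.21 ± 2.18 CPM in wrky10 and 4.12 ± 3.62 CPM in WT in full medium. MpPOD52 averaged 4.03 ± 2.36 CPM in wrky10 and 13.7 ± 1.19 CPM in WT labelled no phosphate (log2 -1.75, adjusted p = 0.153), 3.65 ± 1.1 CPM in wrky10 and 13.6 ± 4.6 CPM in WT labelled no nitrate (log2 -1.89, adjusted p = 0.0863), and 1.43 ± 0.918 CPM in wrky10 and 2.13 ± 3.02 CPM in WT in full medium. For each, the genotypes were apart in both starved media without passing the test, and the WT difference between the starved media was small (log2 0.19 and -0.01, adjusted p = 0.825 and 0.991).

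MpPOD59 (Mp5g01710), at the high end, averaged 4.51 ± 3.14 CPM in wrky10 and 16.7 ± 2.47 CPM in WT labelled no phosphate and passed the test (log2 -1.87, SE 0.512, adjusted p = 0.0464). Labelled no nitrate, it averaged 5.42 ± 1.79 CPM in wrky10 and 11.9 ± 4.6 CPM in WT (log2 -1.13, SE 0.51, adjusted p = 0.143). The unnamed row Mp5g01650, next to MpPOD54, had 10 counts over the 3 wrky10 libraries and 60 over the 3 WT libraries labelled no phosphate. Labelled no nitrate, it had 7 counts in wrky10 and 9 in WT. It stood at 0.844 to 0.938 CPM in WT labelled no phosphate and at 0.37 CPM or less in every other library. It thus passed the low-count filter only through the group where it was high. Its differences from that group (log2 -2.40 for wrky10 labelled no phosphate and -2.47 for WT labelled no nitrate) are given as values, with nothing read from them.

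The rows just outside the run were level in all groups. Mp5g01620 averaged 8.48 to 11.5 CPM over the 6 groups and Mp5g01720 averaged 103 to 115 CPM. Of the 11 rows from Mp5g01600 to Mp5g01790 that lie outside the run, 5 had enough counts to test, and edgeR called 0 of the 5 in any of the 10 comparisons fitted, with 1 of the 50 tests at an unadjusted p under 0.05 and 0 called by DESeq2. How reads that match several genes were counted is not given in the sources used here, so values of single neighbours in the run are uncertain to the extent that their sequences are alike.

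**Figure D3:**
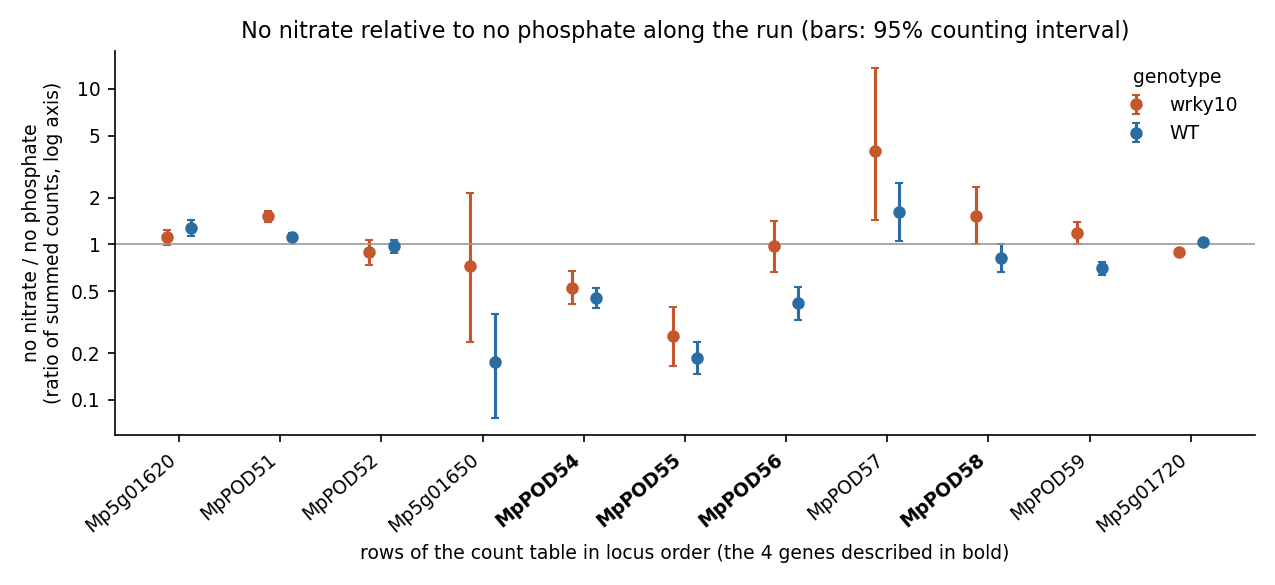
Ratio of summed counts scaled for depth, labelled no nitrate over labelled no phosphate (y axis, log scale), for the 9 rows of the run and the row on each side in locus order (x axis), with wrky10 in orange and WT in blue and 95% counting intervals as bars. MpPOD55 has the lowest ratio of the 4 genes in both genotypes, 0.259 in wrky10 and 0.186 in WT. In wrky10, 93 of its 113 counts labelled no phosphate came from replicate 2. The ratio of MpPOD57 lies above 1, at 3.97 in wrky10 (19 counts against 5) and 1.61 in WT. Within the run, ratios above 1 are seen also for MpPOD51 (1.52 in wrky10 and 1.12 in WT) and, in wrky10 only, for MpPOD58 (1.53) and MpPOD59 (1.18).

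**Figure D4:**
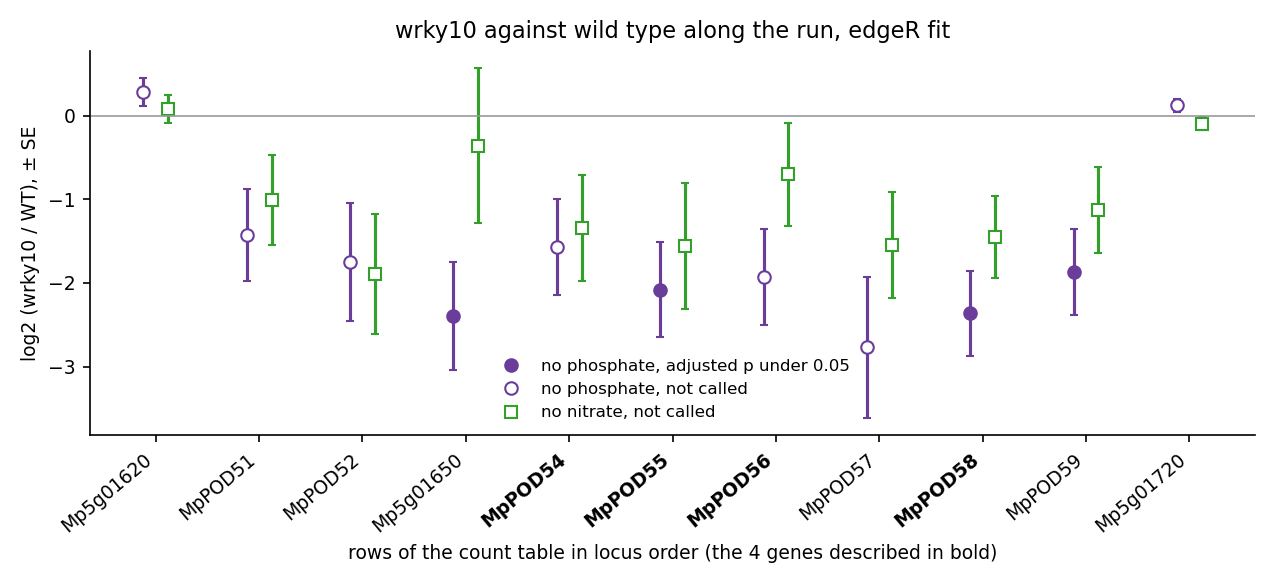
Log2 difference of wrky10 over WT with its SE from the edgeR fit (y axis) for the same rows in locus order (x axis), labelled no phosphate (purple circles, filled where the adjusted p is under 0.05) and labelled no nitrate (green squares). All 9 rows of the run lie below 0 in both media, while the row on each side lies within 0.28 of 0. Labelled no phosphate 4 rows of the run are called, among them Mp5g01650, which passed the low-count filter only through WT labelled no phosphate.

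The 4 genes are set here beside the whole family of 109 tested peroxidases. Labelled no phosphate, 21 were lower and 5 higher in wrky10 than in WT (19.3% and 4.59%, beside 3.95% and 2.66% of all genes), with a median log2 difference of -0.98. Labelled no nitrate, 34 were lower and 10 higher (31.2% and 9.17%, beside 9.82% and 9.59%), with a median of -0.95. In full medium 7 were lower and 4 higher (6.42% and 3.67%, beside 2.17% and 2.07%), with a median of -0.59. Leaving out the 4 genes of the run, 19 and 34 of the other 105 were lower labelled no phosphate and labelled no nitrate, with medians of -0.98 and -0.94. The count labelled no phosphate rests on single libraries, with 39 peroxidases called without replicate 2 of wrky10 labelled no phosphate and 10 without replicate 1 of WT labelled no phosphate. Labelled no nitrate, 21 were called without replicate 3 of WT, against 44 with all libraries.

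Among the other 105 peroxidases, of those with a mean of at least 1 CPM, MpPOD160 had the lowest called value labelled no phosphate, at 0.312 ± 0.0819 CPM in wrky10 and 4.25 ± 0.56 CPM in WT (log2 -3.75, SE 0.409, adjusted p = 4.58e-06), followed by MpPOD34 (log2 -2.45) and MpPOD102 (log2 -1.96). Labelled no nitrate, MpPOD160 was again lowest (log2 -3.72), followed by MpPOD105 (log2 -2.58) and MpPOD91 (log2 -2.51). MpPOD76 was higher in wrky10, at 9.59 ± 0.725 CPM in wrky10 and 1.6 ± 0.402 CPM in WT labelled no phosphate (log2 2.59, adjusted p = 0.00274) and 13.9 ± 1.6 CPM in wrky10 and 2.82 ± 1.19 CPM in WT labelled no nitrate (log2 2.31, adjusted p = 0.00182). MpPOD69 (log2 1.95) and MpPOD143 (log2 0.59) were the other peroxidases named as higher labelled no phosphate, and MpPOD89 (log2 1.61) and MpPOD143 (log2 1.23) labelled no nitrate. Between the starved media in WT, 21 of the 109 were lower and 14 higher labelled no nitrate (19.3% and 12.8%, median -0.01). Of all genes 14.6% were called lower. In either direction 35 of the 109 peroxidases and 4184 of 13016 genes were called, a like share. The called peroxidases of at least 1 CPM outside the 4 genes were led by MpPOD161 (log2 -2.67), MpPOD160 (log2 -2.49) and MpPOD4 (log2 -1.80) among the lower. Among the higher they were led by MpPOD69 (log2 2.28), MpPOD169 (log2 1.42) and MpPOD164 (log2 0.93). The median of -1.20 for the 4 genes stands beside that family median of -0.01.

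By row order, 67 named peroxidases fall into 14 runs of 3 or more in which neighbours are at most 3 rows apart. Of these runs 11 are on chromosome 5, and the run of MpPOD51 to MpPOD59 is the longest with 8. In it 3 of 8 were lower in wrky10 labelled no phosphate (median log2 -1.90) and 0 of 8 labelled no nitrate (median -1.39). In the run of MpPOD100 to MpPOD106, 2 of 6 tested were lower labelled no phosphate (median -1.73) and 4 labelled no nitrate (median -1.90). In the run of MpPOD107 to MpPOD111, 2 of 5 were lower labelled no phosphate (median -1.52) and 5 of 5 labelled no nitrate (median -1.44). No run held a gene called higher in wrky10 labelled no phosphate, and the run of MpPOD88 to MpPOD92 held 2 labelled no nitrate. Of all genes, 3.95% were called lower labelled no phosphate and 9.82% labelled no nitrate. The runs of MpPOD65 to MpPOD67 (1 tested), MpPOD71 to MpPOD75 (2 tested), MpPOD93 to MpPOD96 (3 tested), MpPOD120 to MpPOD122 (2 tested) and MpPOD134 to MpPOD139 (6 tested) had 0 called lower in both media. Their median log2 differences labelled no phosphate were -0.37, -2.25, -1.11, -1.61 and -0.92, in the same order. Labelled no nitrate they were 0.24, -0.98, -1, -1.06 and -0.93. With so few genes tested in a run, a lack of calls does not show that the genotypes were level in it. The 14 runs were not tested against each other.

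The genes whose pattern was most like that of the 4, by Pearson's r of log2(CPM + 1) over the 18 libraries with the mean standardised profile of the 4, included other peroxidases. MpPOD107 had the highest value (r = 0.968), then Mp8g08870 (0.967, without a name in the table), MpPOD102 (0.966), MpExpansin35 (0.965) and Mp5g13680 (0.963, without a name). By Spearman's rho with 0.1 CPM added the same 5 genes ranked 7, 32, 81, 32 and 50, at rho of 0.973, 0.955, 0.938, 0.955 and 0.948, so the order holds for the first measure only. Expansins are proteins that loosen cell walls. The libraries fall into the 6 groups and the 4 genes define the profile, so r is a description and is given with no p. MpPOD107 averaged 5.87 ± 4.12 CPM in wrky10 and 22.6 ± 2.53 CPM in WT labelled no phosphate, 4.57 ± 1.65 CPM in wrky10 and 14.4 ± 6.18 CPM in WT labelled no nitrate, and 0.477 ± 0.248 CPM in wrky10 and 0.577 ± 0.283 CPM in WT in full medium. MpExpansin35 averaged 3.17 ± 1.78 CPM in wrky10 and 9.35 ± 0.835 CPM in WT labelled no phosphate, 1.81 ± 0.213 CPM in wrky10 and 4.5 ± 1.18 CPM in WT labelled no nitrate, and 0.187 ± 0.204 CPM in wrky10 and 0.553 ± 0.281 CPM in WT in full medium. Of all genes tested, 143 reached r of 0.9. Among the 4 genes themselves r between pairs was 0.848 to 0.977 over the 18 libraries and at least 0.722 over the 12 starved libraries.

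Genes around the peroxidase reaction were followed by list. The counts below stand beside the shares of all genes called in wrky10 against WT. These were 2.66% higher and 3.95% lower labelled no phosphate, and 9.59% higher and 9.82% lower labelled no nitrate. The early phenylpropanoid enzymes PAL, C4H and 4CL act on the path from phenylalanine to phenolic compounds, some of which are substrates for wall peroxidases in other plants. Of 16 tested, edgeR called 0 in wrky10 against WT labelled no phosphate, with 2 at an unadjusted p under 0.05 and 0 called by DESeq2. Labelled no nitrate, 5 were higher and 2 lower, among them MpPAL10 at 146 ± 3.3 CPM in wrky10 and 97 ± 8.24 CPM in WT (log2 0.59, adjusted p = 1.56e-05) and MpC4H1 at 974 ± 358 CPM in wrky10 and 410 ± 107 CPM in WT (log2 1.25, adjusted p = 0.00146). Dirigent proteins, which guide the coupling of phenolic radicals in other plants, had 3 higher and 3 lower of 38 labelled no phosphate and 13 higher and 4 lower labelled no nitrate, with MpDIR28 lower in both (log2 -0.83 and -0.86). MpDIR2 was higher in wrky10 in both (log2 2.13, adjusted p = 5.02e-05, labelled no phosphate and 1.32, adjusted p = 0.00113, labelled no nitrate), as was MpDIR56 (log2 0.89, adjusted p = 0.00923, labelled no phosphate and 1.26, adjusted p = 0.00014, labelled no nitrate).

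Polyphenol oxidases, which oxidise phenolic compounds with oxygen in place of hydrogen peroxide, are another large family in Marchantia. Of 33 tested, 9 were lower and 2 higher in wrky10 labelled no phosphate, beside 3.95% and 2.66% of all genes. Labelled no nitrate, 17 were lower and 5 higher, beside 9.82% and 9.59%. MpPPO17 stood at 10.5 ± 0.341 CPM in wrky10 and 118 ± 10.1 CPM in WT labelled no phosphate (log2 -3.49, adjusted p = 6.03e-16), and MpPPO9 at 0.227 ± 0.0439 CPM in wrky10 and 15.2 ± 1.63 CPM in WT (log2 -6.02, adjusted p = 8.74e-14). Both were lower also in full medium (log2 -2.54 and -5.69), where the 4 peroxidases were near the floor. Of 18 other enzymes that handle peroxide or superoxide, 0 were higher and 2 lower labelled no phosphate, the glutathione peroxidase MpGPX1 (log2 -0.26, adjusted p = 0.0169) and the superoxide dismutase MpSOD1 (log2 -0.20, adjusted p = 0.0409). Labelled no nitrate, 1 was higher and 0 lower, the ascorbate peroxidase MpAPX3 (log2 0.37, adjusted p = 0.00493). No gene name matched for the respiratory burst oxidases or the laccases, which are not analysed here.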

How the data were processed

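Directional libraries of poly(A) RNA were made from whole Marchantia plants, per the labels' protocols. An aligner, STAR 2.7, and DESeq2 appear in the submitters' processing notes with no role stated. The counting program, how it used strand or reads matching more than 1 gene, and the genome build are not given in the sources used here. The authors deposited whole-number read counts per gene, 1 column for each of the 18 libraries. Lettuce libraries of the series were not used here. Gene names came from a RefSeq table of assembly MpTak2_v7.1, which matched 17384 of its 18391 entries to the counts. Its coordinates were not used, so levels are not compared between genes.

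The counts were tested in R 4.3.3 with edgeR 4.0.16, which uses limma 3.58.1. The steps were TMM scaling (factors 0.972 to 1.06), filterByExpr, a robust quasi-likelihood fit of the 6 group means and Benjamini-Hochberg adjustment over 13016 genes, called at 0.05. CPM values are TMM-scaled, and ratios with intervals use counts summed over a group. The biological coefficient of variation was 0.0962, and replicates differed by more than sampling noise (chi-square per degree of freedom 3.64 to 22.2). DESeq2 1.42.0, other filters and scalings, a replicate block, fits of the compared groups only and leaving out each library were the alternatives. The steps were checked on simulated counts with a common spread for all genes and equal group means except for the genes changed. That check does not cover genes near 0 in full medium and widely spread in wrky10 labelled no phosphate, such as these 4. The labels do not say whether equal replicate numbers pair libraries of different groups, and the main fit used no pairing. The 4 genes and all lists were chosen with earlier results of these data known.

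Genes were named by rule: the 4 genes, the rows around them, the 5 most similar genes, the 3 highest and 3 lowest called other peroxidases of at least 1 CPM per comparison, the 2 genes of smallest adjusted p per related list, and the label checks. The runs of peroxidases were named by their first and last gene.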

Additional observations from a re-analysis of the deposited data

Results flagged for a closer look

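The change between the medium labelled no nitrate and the medium labelled no phosphate was itself different in wrky10 and WT for 5 peroxidase genes, none of them among the 4 of the run, by the edgeR interaction test adjusted over all genes. MpPOD88 averaged 71.5 ± 34.9 CPM labelled no nitrate and 49.9 ± 8.16 CPM labelled no phosphate in wrky10, against 35.6 ± 7.72 CPM labelled no nitrate and 75.5 ± 4.63 CPM labelled no phosphate in WT (log2 interaction 1.61, adjusted p = 0.0376). MpPOD101 averaged 1.97 ± 0.505 CPM labelled no nitrate and 5.19 ± 0.467 CPM labelled no phosphate in wrky10, against 3.75 ± 0.843 CPM labelled no nitrate and 3.22 ± 0.241 CPM labelled no phosphate in WT (-1.62, adjusted p = 0.0147). MpPOD143 averaged 39.1 ± 4.24 CPM labelled no nitrate and 23.3 ± 2.25 CPM labelled no phosphate in wrky10, against 16.7 ± 3.09 CPM labelled no nitrate and 15.4 ± 0.9 CPM labelled no phosphate in WT (0.64, adjusted p = 0.0391). MpPOD147 averaged 15.8 ± 1.04 CPM labelled no nitrate and 13 ± 0.883 CPM labelled no phosphate in wrky10, against 8.3 ± 1.83 CPM labelled no nitrate and 11.8 ± 1.3 CPM labelled no phosphate in WT (0.79, adjusted p = 0.032). MpPOD148 averaged 161 ± 5.82 CPM labelled no nitrate and 131 ± 2.54 CPM labelled no phosphate in wrky10, against 89.3 ± 7.81 CPM labelled no nitrate and 106 ± 5.37 CPM labelled no phosphate in WT (0.55, adjusted p = 0.00965). The groups had 3 libraries each. Of the 109 peroxidases tested, 3.67% were called with a positive and 0.917% with a negative interaction, where 3.69% of all genes tested were called in either direction. The count of 5 is thus near the share over all genes and is not read as a trait of the family.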

How the results depend on the processing

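Of the 4 genes, the number called lower in wrky10 labelled no phosphate was 2, against 1 without a low-count filter, 1 with only the compared groups fitted and 4 without replicate 2 of wrky10 labelled no phosphate and replicate 1 of WT labelled no nitrate, a setting added after the data were seen. Leaving out each library gave 0 to 4. Labelled no nitrate the number was 0, against 1 by DESeq2, 3 with only the compared groups and 3 without those 2 libraries. Between media in WT it was 1, against 3 with only the compared groups. Between media in wrky10 it was 0, against 1 by DESeq2, 1 without those 2 libraries and 0 to 1 leaving out each library. For the interaction it was 0, against 1 without those 2 libraries and 0 to 2 leaving out each library. Whether the numbers of the replicate block pair libraries is not known (11 of 45 same-number correlations above 0.1, range -0.28 to 0.286). The block called 4, 1, 2 and 1 of the 4 genes in the first 4 of these comparisons, and 782 genes and 8 peroxidases for the interaction. It put MpPOD56 between media in wrky10 at log2 0.13, against -0.02.

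Peroxidases called labelled no phosphate numbered 26, against 44 without those 2 libraries and 10 to 39 leaving out each library. For the interaction 480 genes and 5 peroxidases were called, against 872 and 8 by DESeq2, 3 peroxidases with only the compared groups and 3 without those 2 libraries. Leaving out each library gave 156 to 727 genes and 2 to 8 peroxidases. In full medium 552 genes and 11 peroxidases differed between genotypes, against 280 and 7 with only the compared groups, and 265 to 539 and 7 to 12 leaving out each library. Between media in wrky10, 3481 genes were called, against 2262 with only the compared groups. There, leaving out each library gave 2399 to 3106 genes and 17 to 36 peroxidases. It gave 1635 to 2236 genes and 21 to 44 peroxidases for the genotypes labelled no nitrate, 352 to 861 genes labelled no phosphate, and 20 to 32 peroxidases between media in WT. Between media in wrky10, leaving out each library gave -1.32 to 0.30 for MpPOD54, -2.34 to -0.08 for MpPOD55 and -0.50 to 1.33 for MpPOD56. MpPOD54 turned to 0.30 and MpPOD56 to 1.33 without replicate 2 of wrky10 labelled no phosphate, with or without the other library left out too, and MpPOD56 to 0.25 without replicate 1 of wrky10 labelled no nitrate. The interaction of MpPOD54 ranged from -0.18 to 1.43 over the left-out libraries, at -0.05 and -0.17 in 2 others that turned it. The cause was not tested.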
